A study of Mus musculus with 6 samples.

Results

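The p53 tumour suppressor network and the DNA damage response were described in RNA-seq gene counts from mouse tongues with tumours. This was done through 37 genes chosen by symbol for their known roles, with earlier results of these data known. They are p53 itself (Trp53), its relative p73 (Trp73), transcriptional targets and inhibitors of p53, and damage-response kinases and repair genes. All 37 were among the 24067 genes of the count table, each with 1 row, and all 37 passed the filter on low counts that left 15903 genes to test. The lowest count of any of them in a library was 33. There were 3 tongue libraries labelled HuR KO and 3 labelled HuR wild type (WT), both groups of the C57BL/6 strain and about 34 weeks old. Each library is called a tongue below, though no label says whether replicates are separate animals. HuR, the product of Elavl1, attaches to AU-rich stretches of messenger RNAs and alters their stability and translation. Both groups had received the DNA-damaging carcinogen 4-nitroquinoline 1-oxide for 16 weeks, followed by 12 weeks in which tongue tumours formed. The labels name no promoter or Cre line for the knockout, and each library held whole tongue with tumour, so muscle, connective tissue and epithelium were measured together.

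When DNA is damaged, the kinases ATM and ATR and their partners CHK1 and CHK2 signal to p53, which is otherwise kept low by its inhibitors Mdm2 and Mdm4. Stabilised p53 switches on genes that halt the cell cycle, start apoptosis, repair DNA and restrain growth, and it also switches on Mdm2, which closes a feedback loop. 4-nitroquinoline 1-oxide forms bulky adducts, mainly on guanine, that nucleotide excision repair removes, and loss of p53 function is common in oral carcinoma. Several p53 target messages are short-lived and carry AU-rich elements.

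The 37 genes did not move as a unit. In the KO-labelled tongues, 4 were higher (Plk3, Btg2, Plk2 and Pmaip1) and 3 were lower (Ccng1, Rrm2b and Fas) at an adjusted p under 0.05 in the quasi-likelihood test of edgeR, with p-values adjusted by Benjamini-Hochberg over all genes tested. These 7 are 18.9% of the 37, where 12.2% of all genes tested passed, 4.81% higher and 7.43% lower. The genes at the centre of the network, Trp53, Mdm2 and Cdkn1a, did not pass. The median log2 fold change of labelled KO over labelled WT was 0.21 for the 37 genes and 0.02 for all genes tested, with 24 of the 37 above 0 and 13 below. Levels below are normalised read counts in CPM, which takes the TMM-scaled size of each library into account, and fold changes are log2 values with their standard error.

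**Figure D1:**
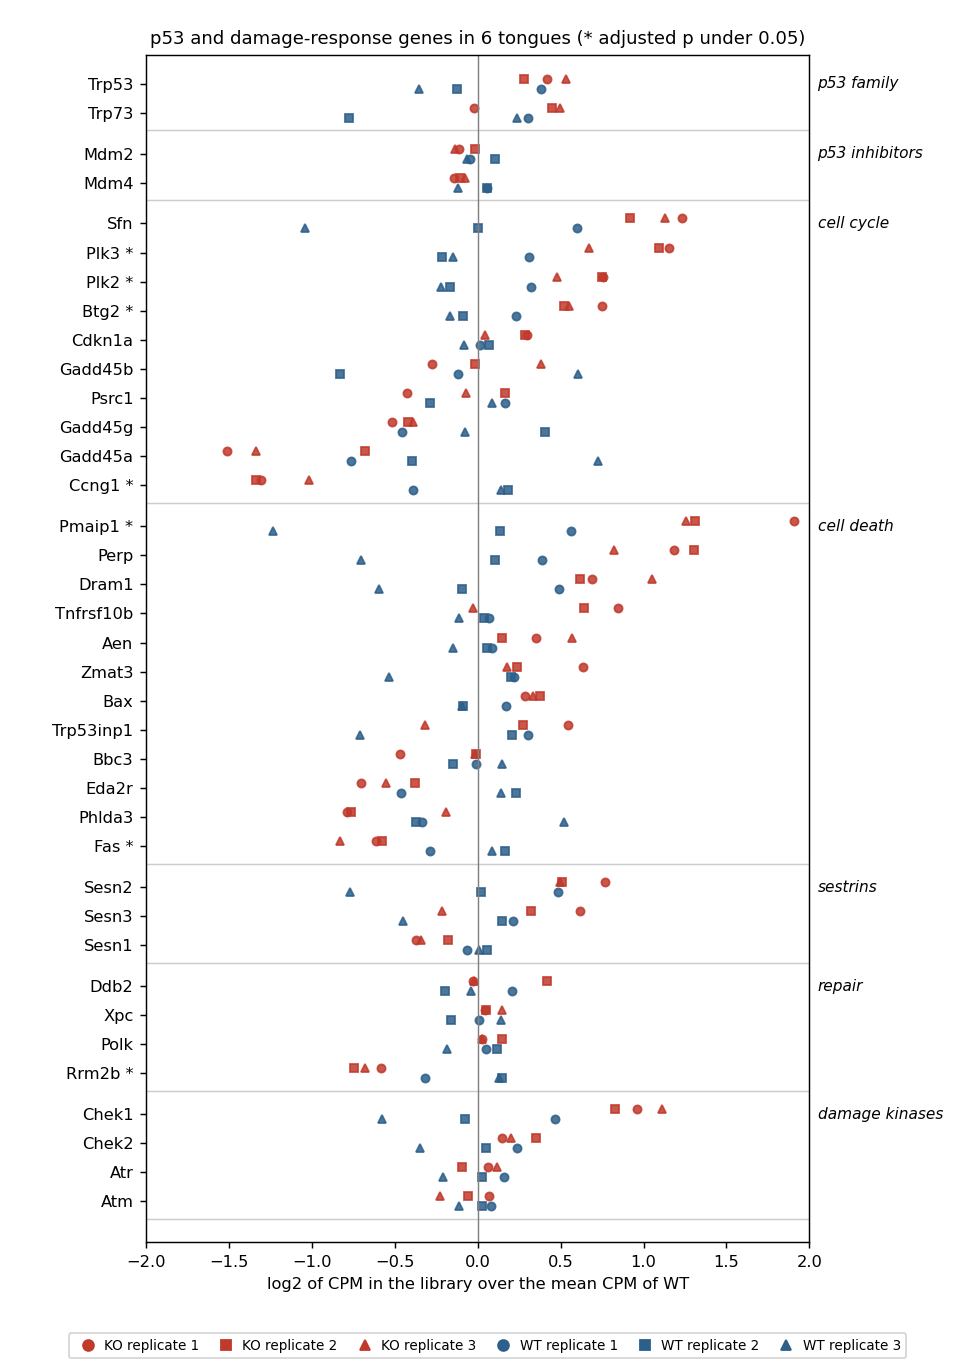
Level of each of the 37 genes in every library, as log2 of its CPM over the mean CPM of the 3 libraries labelled WT, in red for KO and blue for WT and grouped by role. The 7 genes with an asterisk passed the test and their groups do not overlap. For Mdm2, Mdm4, Atm and Atr, among others, the ranges of the red and blue points overlap.

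The sequences that bear on the 2 kinds of regulation named above are promoter motifs for p53 and AU-rich stretches for HuR. A promoter in the RefSeq table for GRCm38.p6 was found for 29 of the 37 genes, and the 250 bases before each start were searched for the p53 half-site consensus, a motif of 10 bases that is its own reverse complement. It was present in 9 of the 29 genes (31.0%), namely Trp53, Cdkn1a, Mdm2, Ccng1, Bax, Gadd45a, Sesn1, Aen and Polk, against 7.57% of 12331 tested genes with a promoter. The 37 genes were chosen as p53 targets, so this share describes the choice and is not a finding. Only exact matches in these 250 bases were sought, so half-sites elsewhere or with a mismatch were neither counted nor marked. A pair of half-sites with at most 13 bases between them was present for Cdkn1a alone among the 29 that were searched, and for 6 (0.0487%) of the 12331 genes. Below are 3 of these promoters, shown because their genes behaved differently: Ccng1 was lower in the KO-labelled tongues, while Cdkn1a and Mdm2 did not pass the test. Capitals mark the half-sites. They begin at position -185 from the start listed for Ccng1 and at -186 for Mdm2. For Cdkn1a they begin at -73 and -51 from the more upstream of the listed starts. The Ccng1 block reaches into the gene span given below, chr11:40748552-40755309, so its listed start is not the outermost one.
Ccng1 (chr11:40755287-40755536, minus strand): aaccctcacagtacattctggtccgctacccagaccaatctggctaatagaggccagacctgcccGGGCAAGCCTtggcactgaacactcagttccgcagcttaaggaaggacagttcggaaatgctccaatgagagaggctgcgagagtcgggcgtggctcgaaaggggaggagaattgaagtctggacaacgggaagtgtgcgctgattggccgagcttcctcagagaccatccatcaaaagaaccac
Cdkn1a (chr17:29090729-29090978, plus strand): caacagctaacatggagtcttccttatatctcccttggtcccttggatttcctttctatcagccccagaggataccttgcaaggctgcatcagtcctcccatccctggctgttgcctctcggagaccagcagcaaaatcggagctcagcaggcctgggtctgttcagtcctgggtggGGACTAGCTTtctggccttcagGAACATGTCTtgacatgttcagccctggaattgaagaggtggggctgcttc
Mdm2 (chr10:117710759-117711008, minus strand): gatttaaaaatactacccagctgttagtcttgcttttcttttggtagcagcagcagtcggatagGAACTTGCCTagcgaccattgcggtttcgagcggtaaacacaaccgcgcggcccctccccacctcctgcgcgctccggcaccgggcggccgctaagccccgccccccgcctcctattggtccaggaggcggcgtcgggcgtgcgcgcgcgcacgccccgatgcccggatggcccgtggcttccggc

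The motif ATTTA, the core of AU-rich elements, and the longer TATTTAT were searched on the sense strand of the 3' UTR of 1 transcript per gene in GENCODE M21 for GRCm38 (an APPRIS principal one where tagged, then the longest 3' UTR). ATTTA was present in 24 of the 37 genes (64.9%), against 66.1% of 14374 tested genes with a 3' UTR. TATTTAT was present in 14 of the 37 (37.8%), against 27.8% of those genes, and each TATTTAT also contains an ATTTA. The median 3' UTR was longer for the 37 genes, at 1197 bases against 994, and the shares are not adjusted for length. All 4 of the genes that were higher in the KO-labelled tongues held TATTTAT, with 4 copies in Pmaip1, 3 in Plk3, 2 in Plk2 and 1 in Btg2. In that order, their 3' UTRs were 2187, 332, 620 and 2199 bases long. Of the 3 that were lower, Rrm2b held 4 copies, Ccng1 held 1 and Fas held 0. Across all tested genes TATTTAT was in 22.6% of those called higher, 32% of those called lower and 27.7% of those not called, and the median 3' UTR was 779, 1280 and 988 bases long in these 3 sets, in the same order as the shares. Below are the stretches of at most 30 bases with the most ATTTA for 5 of the genes that passed and for Mdm2, with ATTTA in capitals.
Plk3 (bases 246 to 275 after the stop codon): cacttttATTTAttaacagacATTTATTTA
Plk2 (bases 521 to 550 after the stop codon): tATTTAttacagccccaagagcagtATTTA
Btg2 (bases 1322 to 1351 after the stop codon): aaATTTAtttgtagatgtgtgcaatATTTA
Ccng1 (bases 1393 to 1422 after the stop codon): taaactgcttaATTTAaatctcaaaATTTA
Rrm2b (bases 2305 to 2325 after the stop codon): ttgcacATTTATTTAttatgt
Mdm2 (bases 377 to 402 after the stop codon): aagaacATTTAATTTATTTAgtgtct
Runs of overlapping copies stood in the Plk3, Rrm2b and Mdm2 stretches, whose genes were higher, lower and not called in the KO-labelled tongues.

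Facts of the whole series bear on every result. Total counts per library were 29543352 to 51520707. Elavl1 was not lower in the KO-labelled tongues, at 65.0, 59.3 and 78.4 CPM in KO-labelled tongues 1, 2 and 3, against 61.7, 55.8 and 48.0 CPM in WT-labelled tongues 1, 2 and 3 (log2 fold change 0.29 ± 0.15, edgeR adjusted p = 0.180). Which exons the knockout allele lacks is not given in the labels, so the counts do not check the genotype, and each tongue is named by its label. By Xist and Y-linked genes, KO-labelled tongues 2 and 3 were female and the other 4 libraries male. Summed keratinocyte markers (26 genes) were 46190 to 57806 CPM in the KO-labelled tongues, against 22574 to 35304 CPM in the WT-labelled ones, and summed fast muscle markers (20 genes) were 48627 to 68697 CPM, against 84704 to 156753 CPM. No marker of these 2 lists averaged below 1 CPM over the 6 libraries, which fits the tongue label; Ivl, a late keratinocyte marker, was the lowest, at 0.234 CPM in WT replicate 3. Fibroblast, endothelial, adipocyte and Schwann cell sums were also lower and proliferation and leukocyte sums higher in the KO-labelled tongues, each without overlap (exact permutation p = 0.1, 2-sided, the smallest that 3 against 3 can give, adjusted p = 0.1125). The adipocyte sum rested mainly on Lpl, which muscle also makes, while Adipoq, the more specific marker, was at 0.547 to 0.767 CPM in the KO-labelled tongues, against 0.0391 to 1.27 CPM in the WT-labelled ones. The leukocyte sum rested mainly on S100a8 and S100a9, which keratinocytes also make, and 0 of its 15 tested markers passed the test. In bulk tissue, fewer cells of a type and less RNA per cell cannot be told apart.

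**Figure D2:**
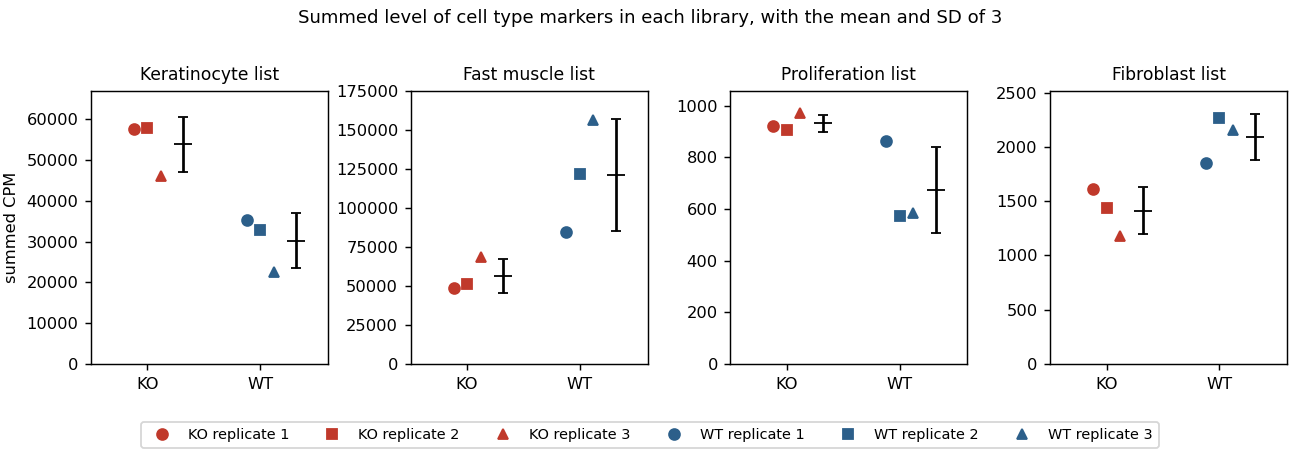
Summed CPM of 4 lists of cell type markers in each library, with KO left of WT and the mean and SD of 3 libraries in black. Keratinocyte and proliferation sums are higher and muscle and fibroblast sums lower in all 3 libraries labelled KO than in any labelled WT.

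None of Trp53, Trp73, Mdm2 and Mdm4 passed the test. Trp53, at chr11:69580348-69591873 in GRCm38, stood at 74.2, 67.3 and 80.5 CPM in KO-labelled tongues 1, 2 and 3, against 72.2, 51.0 and 43.4 CPM in WT-labelled tongues 1, 2 and 3. WT replicate 1 lay inside the range of the KO-labelled tongues and the other 2 labelled WT below it. The log2 fold change of 0.41 ± 0.19 did not pass (edgeR adjusted p = 0.147), and its 95% interval ran from 0.982-fold to 1.80-fold. Trp73 likewise gave 0.33 ± 0.29 with overlapping groups. Mdm2 (chr10:117688875-117710758), the ubiquitin ligase that p53 itself induces and that degrades p53, stood at 71.4, 76.4 and 70.2 CPM in KO-labelled tongues 1, 2 and 3, against 74.7, 83.2 and 73.9 CPM in WT-labelled tongues 1, 2 and 3. The groups overlapped, with a log2 fold change of -0.09 ± 0.11 (edgeR adjusted p = 0.561) and a 95% interval of 0.791-fold to 1.12-fold. Mdm4, a relative of Mdm2 that blocks the transcriptional activity of p53, was as close, at -0.11 ± 0.11. Changes of either inhibitor beyond 1.5-fold lay outside these intervals.

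Of the 10 cell cycle genes 3 rose and 1 fell in the KO-labelled tongues, where 4.81% and 7.43% of all genes did. Ccng1 encodes cyclin G1, a direct p53 target that recruits a phosphatase to Mdm2, and lies at chr11:40748552-40755309. It fell in the KO-labelled tongues, to 265, 259.7 and 325 CPM in replicates 1, 2 and 3, against 502, 747 and 724 CPM in WT-labelled tongues 1, 2 and 3. The highest library labelled KO was well below the lowest labelled WT. The log2 fold change of -1.22 ± 0.21 (edgeR adjusted p = 0.0312) is a fold of 0.431, with a 95% interval of 0.309 to 0.600. It had the smallest adjusted p and the largest fall of the 37. Summed fast muscle markers, given above, differed in the same direction as Ccng1, Rrm2b and Fas, at 48627 to 68697 CPM in the KO-labelled tongues, against 84704 to 156753 CPM in the WT-labelled ones, with 6 of 20 markers passing as lower and 0 as higher; their part in these falls was not tested.

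Plk3 (chr4:117128655-117133963) and Plk2 (chr13:110395044-110400844) encode polo-like kinases that stress and p53 induce. Plk3 stood at 48.4, 46.4 and 34.6 CPM in KO-labelled tongues 1, 2 and 3, against 26.9, 18.7 and 19.6 CPM in WT-labelled tongues 1, 2 and 3. Plk2 stood at 57.3, 57.2 and 47.3 CPM in KO-labelled tongues 1, 2 and 3, against 42.5, 30.3 and 29.2 CPM in WT-labelled tongues 1, 2 and 3. For both, KO replicate 3 was the lowest of its group and WT replicate 1 the highest of its group, and the groups did not overlap. Plk3 was 1.98-fold higher (log2 0.99 ± 0.19, edgeR adjusted p = 0.0327) and Plk2 1.59-fold higher (log2 0.67 ± 0.17, edgeR adjusted p = 0.0467). Exons of Plk3 share 84 bases with Tctex1d4 on the opposite strand, and the strand setting of the counts is not given. Btg2 (chr1:134074865-134079155), an antiproliferative adaptor of the deadenylation machinery, stood at 82.98, 70.8 and 72.3 CPM in KO-labelled tongues 1, 2 and 3, against 57.9, 46.4 and 44.0 CPM in WT-labelled tongues 1, 2 and 3. All 3 libraries labelled KO lay above all 3 labelled WT, a 1.53-fold rise (log2 0.61 ± 0.14, edgeR adjusted p = 0.0389). Summed keratinocyte markers, given above, differed in the same direction as Plk3, Plk2, Btg2 and Pmaip1. They were at 46190 to 57806 CPM in the KO-labelled tongues, against 22574 to 35304 CPM in the WT-labelled ones. Of the 26 markers, 7 passed as higher and 0 as lower, and their part in these rises was not tested.

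Cdkn1a (chr17:29090979-29100722) encodes p21, the inhibitor of cyclin-dependent kinases through which p53 arrests cells. It stood at 255, 253 and 214 CPM in KO-labelled tongues 1, 2 and 3, against 209, 217 and 196 CPM in WT-labelled tongues 1, 2 and 3. KO replicate 3 fell within the range of the WT-labelled tongues. The log2 fold change of 0.21 ± 0.14 did not pass (edgeR adjusted p = 0.266), and its 95% interval ran from 0.934-fold to 1.44-fold. Sfn (chr4:133600556-133602168), encoding the epithelial protein 14-3-3 sigma that holds cells before mitosis, stood at 902, 726 and 842 CPM in KO-labelled tongues 1, 2 and 3, against 582, 384 and 186 CPM in WT-labelled tongues 1, 2 and 3. The groups did not overlap, but the WT-labelled tongues spread widely and the log2 fold change of 1.10 ± 0.37 did not pass (edgeR adjusted p = 0.0761). Of the Gadd45 stress genes, Gadd45a gave -1.13 ± 0.39 (edgeR adjusted p = 0.0816) with overlapping groups, and its WT replicate 3, at 63.9 CPM, was more than any other library. Gadd45g gave -0.44 ± 0.20 and Gadd45b 0.06 ± 0.34. Psrc1, a microtubule-binding protein, gave -0.09 ± 0.19.

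**Figure D3:**
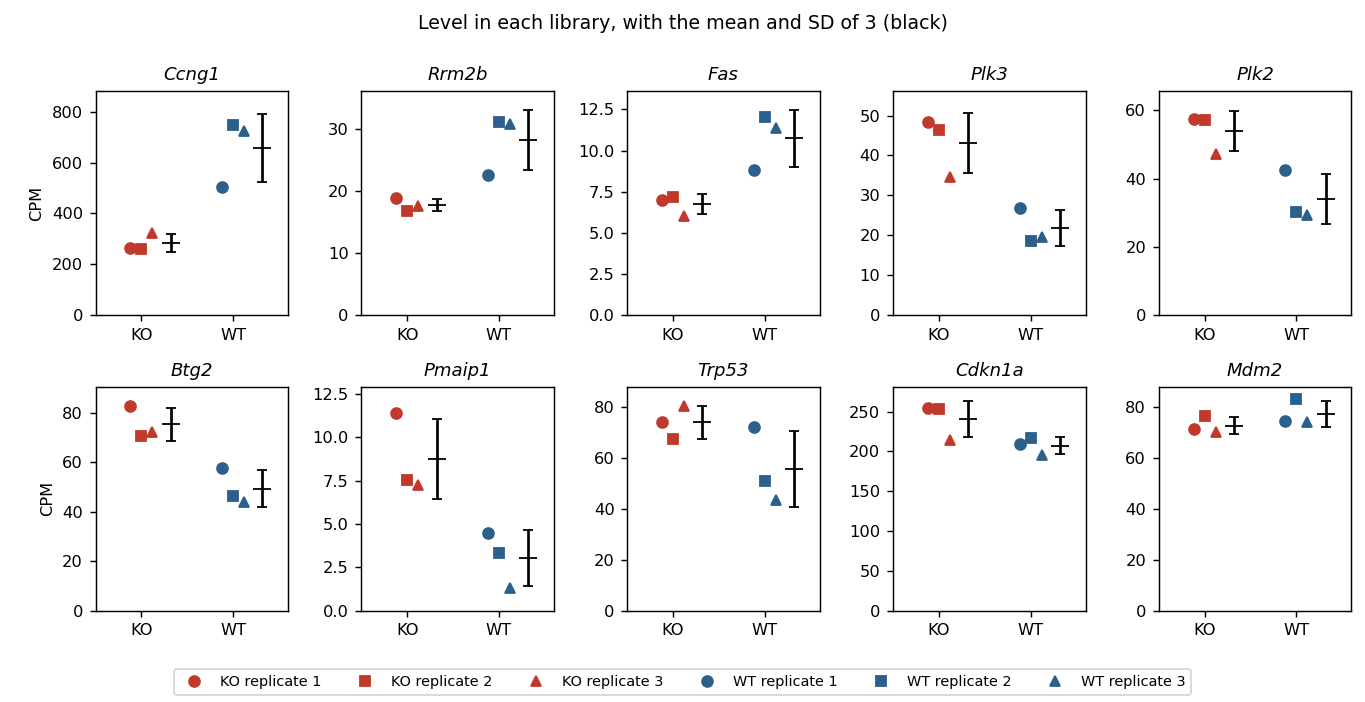
CPM in each library of the 7 genes that passed the test and of Trp53, Cdkn1a and Mdm2, with KO left of WT and the mean and SD of 3 libraries in black. Ccng1, Rrm2b and Fas are lower in every library labelled KO than in any labelled WT, Plk3, Plk2, Btg2 and Pmaip1 are higher, and the groups of the other 3 genes overlap.

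Among the 12 genes of cell death, Pmaip1 rose, Fas fell and the other 10 did not pass. Of all genes tested, 4.81% rose and 7.43% fell. Pmaip1 encodes NOXA, a BH3-only protein that neutralises the survival factor MCL1, and it was at 11.4, 7.54 and 7.26 CPM in KO-labelled tongues 1, 2 and 3, against 4.5, 3.34 and 1.29 CPM in WT-labelled tongues 1, 2 and 3. The groups did not overlap, KO replicate 1 was the highest of all and WT replicate 3, with 33 counts, the lowest. Its log2 fold change of 1.5 ± 0.41 (edgeR adjusted p = 0.0497), a fold of 2.84, was the largest rise of the 37, and its 95% interval was wide, from 1.48-fold to 5.43-fold. Fas (chr19:34290647-34327775), the death receptor, stood at 7.02, 7.19 and 6.04 CPM in KO-labelled tongues 1, 2 and 3, against 8.80, 12.0 and 11.4 CPM in WT-labelled tongues 1, 2 and 3. The groups were apart, with a fold of 0.628 (log2 -0.67 ± 0.18, edgeR adjusted p = 0.0476). The receptor genes Tnfrsf10b, at 0.53 ± 0.23, and Eda2r, at -0.54 ± 0.21, had overlapping groups and did not pass (edgeR adjusted p = 0.135 and 0.106).

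Perp (chr10:18845071-18857073), a membrane protein of desmosomes that p53 and its relative p63 induce, stood at 1601, 1738 and 1246 CPM in KO-labelled tongues 1, 2 and 3, against 922, 758 and 432 CPM in WT-labelled tongues 1, 2 and 3. Every library labelled KO was above every library labelled WT, yet the log2 fold change of 1.12 ± 0.30 lay just outside the threshold (edgeR adjusted p = 0.0505). Perp and Sfn are made strongly in stratified epithelium, and the keratinocyte marker sums given above, 46190 to 57806 CPM against 22574 to 35304 CPM, differed in the same direction; 7 of the 26 markers passed as higher and 0 as lower. Their part in the values of these genes was not tested. The mitochondrial pore protein Bax gave 0.33 ± 0.12 and the nuclease Aen 0.37 ± 0.14, both without overlap. Neither was past the threshold (edgeR adjusted p = 0.0871 and 0.102). Exons of Bax share 192 bases with Gm45808 on the same strand. Bbc3, encoding the BH3-only protein PUMA, gave -0.15 ± 0.21 with overlapping groups. Its 95% interval, 0.647-fold to 1.26-fold, leaves its direction open. Dram1, a lysosomal regulator of autophagy, gave 0.80 ± 0.27 without overlap (edgeR adjusted p = 0.0745). Phlda3, a repressor of Akt, gave -0.55 ± 0.28, the RNA-binding protein Zmat3 0.36 ± 0.22 and Trp53inp1 0.21 ± 0.30, all with overlapping groups.

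Of 4 repair genes 1 fell, where 7.43% of all genes tested did. Rrm2b (chr15:37923952-37961119) encodes the p53-inducible subunit of ribonucleotide reductase, which supplies deoxynucleotides to cells that are not dividing. It stood at 18.8, 16.8 and 17.6 CPM in KO-labelled tongues 1, 2 and 3, against 22.6, 31.1 and 30.8 CPM in WT-labelled tongues 1, 2 and 3. The 3 libraries labelled KO were close together and below all 3 labelled WT, with a fold of 0.629 (log2 -0.67 ± 0.16, edgeR adjusted p = 0.0397). Its exons share 260 bases with Gm49085 on the opposite strand. The damage recognition factors of nucleotide excision repair, Ddb2 at 0.14 ± 0.19 and Xpc at 0.08 ± 0.12, and the translesion polymerase Polk at 0.06 ± 0.14 had overlapping groups. Ddb2 shares 621 exonic bases with Acp2 on the opposite strand. Genes on the opposite strand also share exonic bases with Trp73 (280), Cdkn1a (273), Gadd45a (238) and Atr (187 and 462).

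None of the 4 kinases that signal damage passed. The log2 fold change of Chek1 was 0.97 ± 0.27, without overlap and just outside the threshold (edgeR adjusted p = 0.0514), with 7.08 ± 0.707 CPM in the KO-labelled tongues and 3.61 ± 1.29 CPM in the WT-labelled ones (SD, n = 3 each). Chek1 is expressed in dividing cells, and the summed proliferation markers were 907 to 970.0 CPM in the KO-labelled tongues, against 571 to 864 CPM in the WT-labelled ones, with 2 of 14 markers passing as higher; their part in the Chek1 value was not tested. Chek2 gave 0.23 ± 0.17, Atm -0.07 ± 0.12 and Atr 0.03 ± 0.13, with overlapping groups, and the 95% intervals of Atm and Atr lay within 1.5-fold either way. None of the 3 sestrins, which restrain mTORC1 under stress, passed: Sesn2 gave 0.59 ± 0.28, Sesn3 0.28 ± 0.25 and Sesn1 -0.30 ± 0.11.

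**Figure D4:**
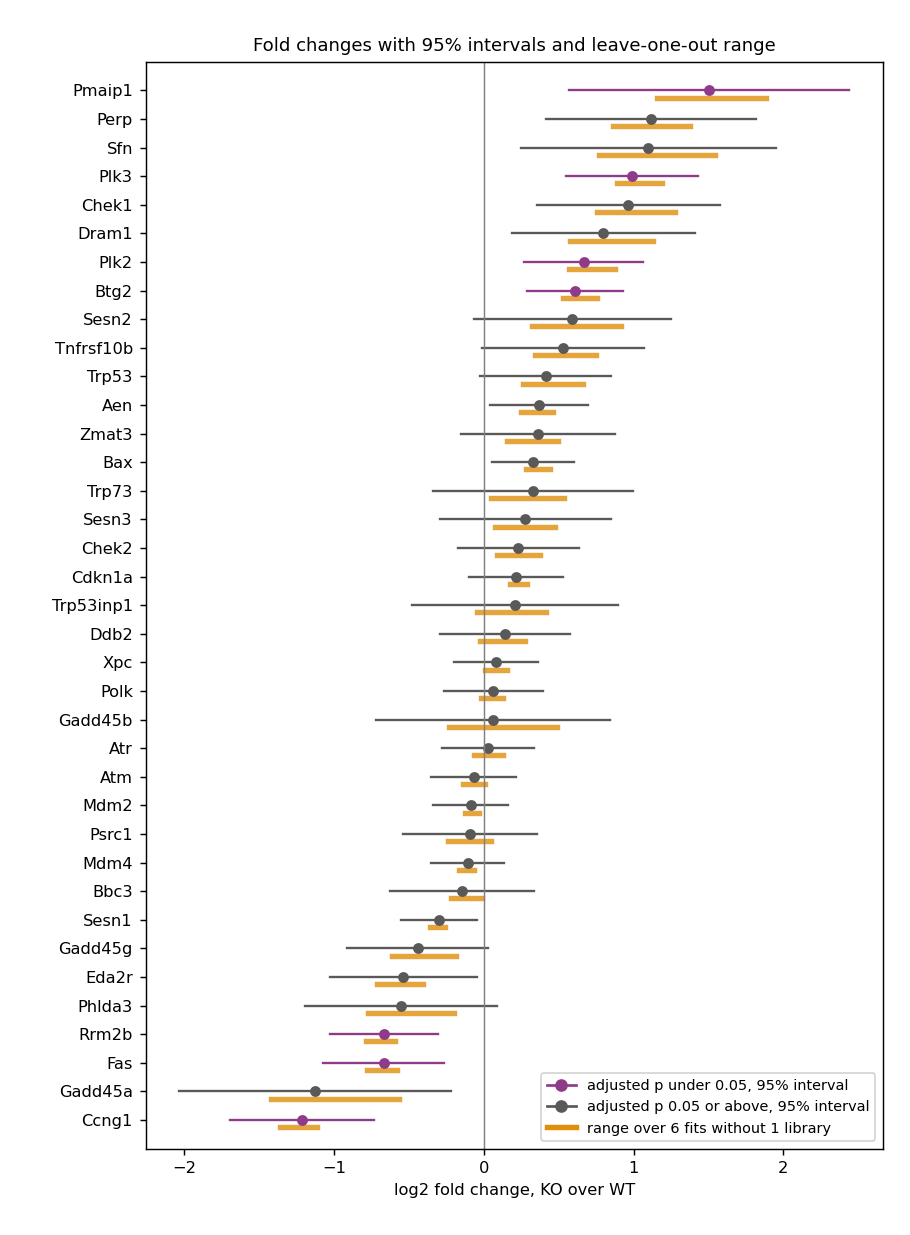
Log2 fold change of labelled KO over labelled WT for the 37 genes, with the 95% interval as a line (purple where the adjusted p is under 0.05) and, in orange, the range of the value when each of the 6 libraries was left out in turn. The values run from -1.22 for Ccng1 to 1.5 for Pmaip1. The orange ranges of the 7 genes that passed stay on their own side of 0, which groups without overlap all but fix in advance.

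Over the 37 genes, 15 had groups that did not overlap, 11 higher and 4 lower in the KO-labelled tongues. That is 40.5%, where 44.1% of all genes tested had no overlap, 22% higher and 22.1% lower, so the count lies near the background. An unadjusted p under 0.05 was reached by 16 of the 37, 10 higher and 6 lower, where 38.5% of all genes reached it. Of the 30 genes that did not pass, 21 had a 95% interval within 2-fold either way, and 8 were among the 15 without overlap. The matching shares of all genes that did not pass were not computed, so these counts are not read as a trait of the 37. WT replicate 3 was the highest or the lowest of the 6 libraries for 23 of the 37 genes (62.2%, against 64% of all genes), and KO replicate 1 for 19 (51.4%, against 39.7%).

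Levels were compared between genes only per kilobase of exon, by the lengths of GENCODE M21. In the KO-labelled tongues, Perp was the highest at 783 ± 130 and Sfn next at 510 ± 55.5 CPM per kilobase, against 361 ± 128 and 238 ± 122.6 CPM per kilobase in the WT-labelled ones (SD, n = 3 each). Their means were the highest of the 37 in both groups, but in WT replicate 3 Sfn, at 116 CPM per kilobase, was below Phlda3 at 220.1 and Ccng1 at 206. In the KO-labelled tongues the next were Phlda3 (104 ± 25.7), Cdkn1a (88.5 ± 8.43), Ccng1 (80.6 ± 10.3) and Gadd45g (72.8 ± 3.39 CPM per kilobase), neighbours whose spreads touch. In the WT-labelled tongues, Ccng1 followed Perp and Sfn at 187 ± 38.4 CPM per kilobase, beside Phlda3 at 153 ± 57.8. Trp53 itself was at 39.6 ± 3.52 CPM per kilobase in the KO-labelled tongues and 29.7 ± 8.0 in the WT-labelled ones. Eda2r was the lowest in the KO-labelled tongues, at 1.53 ± 0.174 CPM per kilobase, and Chek1 in the WT-labelled ones, at 0.927 ± 0.332. Pmaip1, at 3.20 ± 0.846 CPM per kilobase in the KO-labelled tongues and 1.11 ± 0.595 in the WT-labelled ones, was also near the bottom.

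**Figure D5:**
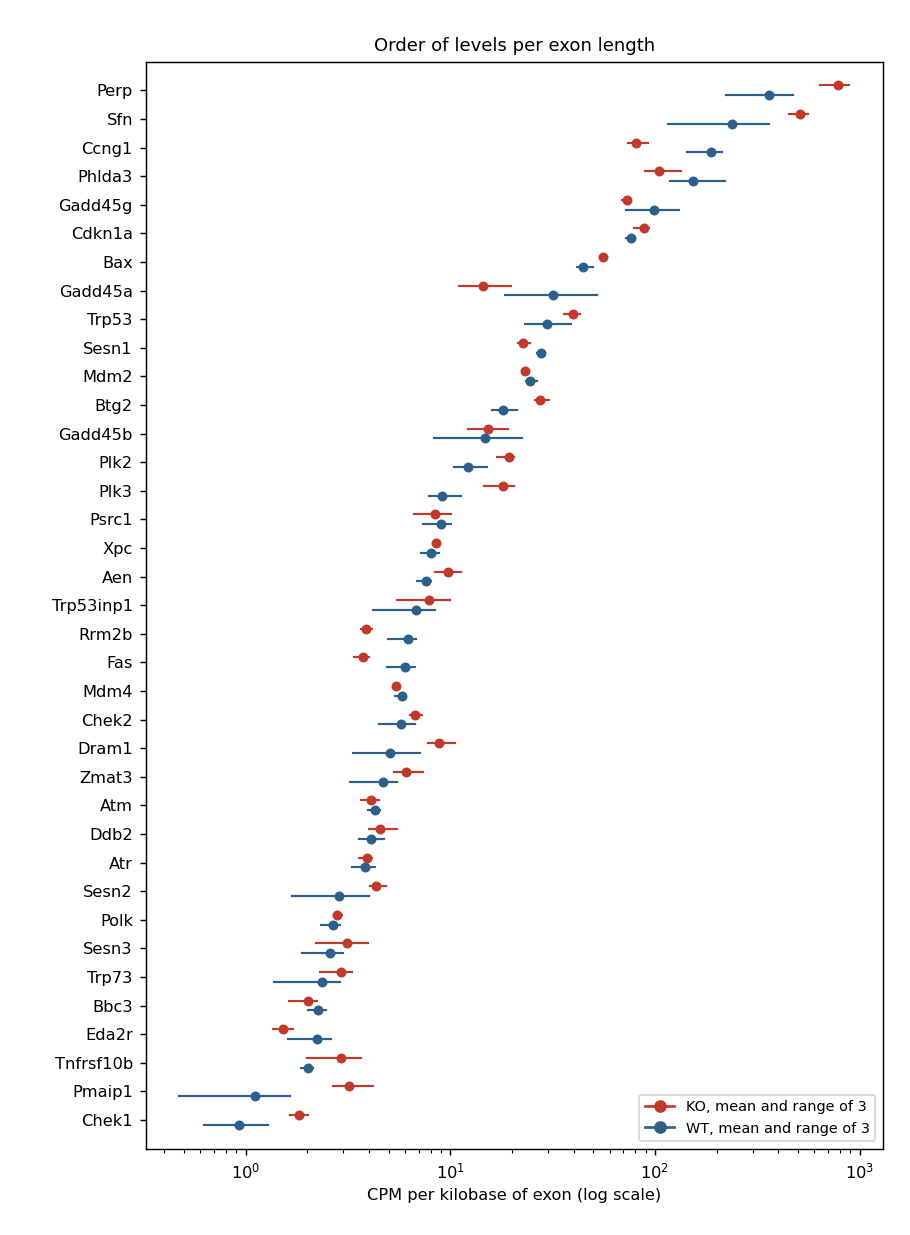
Mean level of the 37 genes per exon length, in CPM per kilobase on a log axis, with the range of the 3 libraries labelled KO (red) and of the 3 labelled WT (blue), in the order of the WT means. Perp and Sfn have the highest means in both groups, Ccng1 and Gadd45a sit further left in KO, and Pmaip1 and Chek1 are at the bottom in WT.

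The wider pathway was covered by 137 tested genes in 7 lists, none of them among the 37. Of these, 9 rose and 1 fell in the KO-labelled tongues, where 4.81% and 7.43% of all genes did, with a median log2 fold change of 0.15. Other p53 targets held 3 rises and 1 fall among 29 genes (median 0.24). The growth factor Tgfa rose by 1.12 ± 0.24, the pro-apoptotic Bid by 1.11 ± 0.26 and the receptor kinase Epha2 by 1.14 ± 0.27, and the metalloreductase Steap3 fell by 0.89 on the log2 scale (edgeR adjusted p = 0.0359, 0.0393, 0.0410 and 0.0410). Among 19 regulators and relatives of p53, Ppp1r13l, encoding the p53 inhibitor iASPP, rose by 0.66 ± 0.16 (edgeR adjusted p = 0.0416).

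The 5 lists of DNA repair and checkpoint genes held 5 rises (5.62%) and 0 falls among 89 tested genes, and the share of rises lies near the 4.81% of all genes. Of 23 damage sensors and mediators, Tipin, a replication fork protector, rose by 0.61 ± 0.14 (edgeR adjusted p = 0.0385). Of 24 genes of homologous recombination and the Fanconi pathway, Xrcc3 rose by 0.56 ± 0.14 and Slx4 by 0.48 ± 0.13 (edgeR adjusted p = 0.0421 and 0.0491), and this list had the highest median, 0.39. Of 14 base excision repair genes the endonuclease Apex1 rose by 0.58 ± 0.15 (edgeR adjusted p = 0.0463), and of 9 translesion genes the sliding clamp Pcna, which is also one of the proliferation markers, rose by 0.62 ± 0.15 (edgeR adjusted p = 0.0444). By edgeR 0 of the 19 nucleotide excision repair genes passed; before adjustment, 3 with a higher and 2 with a lower level had a p below 0.05, and DESeq2 called 2 and limma-voom 1. Lig1, the ligase with the smallest p of that list, had a log2 fold change of 0.92 ± 0.26 (edgeR adjusted p = 0.0523). Summed proliferation markers differed in the same direction as these repair genes, at the values given for Chek1, and their part was not tested.

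The calls rest on few libraries. Without KO replicate 1, 2 or 3 or WT replicate 2, edgeR called 0 of the 37 genes. In the same order it called 0.0626%, 0%, 0.325% and 0.00624% of all genes. Without WT replicate 3 it called 3, namely Ccng1, Plk3 and Pmaip1 (4.5% of all genes), and without WT replicate 1 it called 17 (36% of all genes). With sex as a covariate, which leaves male KO replicate 1 to carry the contrast with the all-male WT group, 0 passed (0% of all genes). DESeq2 called 12, 8 higher and 4 lower, where it called 28.1% of all genes, 12.1% higher and 15.9% lower; the added genes were Perp, Chek1, Dram1 and Sfn (higher) and Gadd45a (lower). Other scaling factors, no low-count filter and limma-voom called 7 to 9, where 12.2% (RLE factors), 12.9% (upper-quartile factors), 10.7% (no filter) and 14.2% (limma-voom) of all genes passed. All 7 genes kept their direction in all 13 alternative fits. Their groups do not overlap, so leaving out 1 library could hardly reverse them, and the other fits reuse the same libraries. The kept direction is therefore no separate support.

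The authors' deposited table of all 6 libraries, in which log2 fold changes run WT over KO and so have the opposite sign, called 12 of the 37 genes, where 28.7% of its genes were called. In it Ccng1 had 1.15 and Plk3 -0.92 on the log2 scale, with adjusted p-values of 7.43e-07 and 0.000141. The authors' deposited table without KO replicate 3 and WT replicate 2 called 4 of the 37 (9.57% of its genes). The authors' deposited table without KO replicate 3 and WT replicate 1 called 18 (35.7% of its genes), and there Trp53 had -0.54, WT over KO, with an adjusted p of 0.0129. These tables share libraries and are not independent of each other.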

How the data were processed

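Total RNA of tongue was made into 6 Illumina TruSeq libraries, per the labels' protocols. The authors deposited raw counts per gene in 3 tables, and their 2 tables of 4 libraries repeat counts of the table of 6. Per the file headers the tables also hold log2 fold changes, their standard errors and p-values with their adjusted form, from the authors' comparison; the log2 fold changes run WT over KO. The submitters' processing notes name HTSeq, DESeq2, hg19 and mm10. Not given in the sources used here are the aligner, the annotation and whether counting used strand. No label says whether replicates are separate animals, so the p-values measure only the spread between these samples, which may be partly technical. Libraries of 1 group differed well beyond counting noise (chi-square per degree of freedom 48.0 to 178), and KO replicate 1 differed in sex from KO replicates 2 and 3.

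The tests were run on raw counts in R 4.3.3 with edgeR 4.0.16, using filterByExpr (at least 10 counts, 15 in all), TMM scaling, and a robust quasi-likelihood fit with group as its only term, at a threshold of 0.05. The biological coefficient of variation common to all genes was 20.7%. Alternatives were DESeq2 1.42.0, limma-voom (limma 3.58.1), other scaling, no filter, a replicate block, sex as a covariate and leaving out each library. In data simulated from these libraries, 200 of 15903 genes were changed. The fit recovered 57% of changes of 1 and 91% of changes of 2 on the log2 scale, with 11 false calls among 159. In the measured data edgeR called 1946 genes, so these rates need not carry over. At 1 CPM a library holds 25.6 to 53.0 counts. Standard errors are the log2 fold change over the root of the F statistic. The 37 genes and the lists were chosen with earlier results of these data known. Values in every library are given for genes past the threshold, for Trp53, Cdkn1a and Mdm2, and for genes without overlap and a log2 fold change of at least 1; from each other list up to 4 genes past the threshold are named, otherwise the one with the smallest p. Coordinates are from RefSeq for GRCm38.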

Additional observations from a re-analysis of the deposited data

How the results depend on the processing

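Over all genes, edgeR called 1946 (765 higher and 1181 lower in KO-labelled tongues). DESeq2 called 4349 (1881 higher, 2468 lower). Leaving out 1 library gave 0 to 5844 calls over all genes (0 to 2906 higher, 0 to 2938 lower). For the 37 genes, DESeq2 called 12 (8 higher) and leaving out 1 library gave 0 to 17 (0 to 11 higher, 0 to 6 lower). For the pathway lists, 10 calls (9 higher) became 31 (27 higher, 4 lower) with DESeq2 and 0 to 45 (0 to 40 higher, 0 to 5 lower) without 1 library. With sex as a covariate all these counts were 0, and the median of the 37 genes was 0.066 in place of 0.21, against 0.12 to 0.27 without 1 library. Correlations of same-numbered libraries were 0.12, -0.16 and 0.19, so the replicate numbers are not shown to pair the samples; with a replicate block the calls were 3817 over all genes (1705 higher, 2112 lower), 11 of the 37 (7 higher) and 28 in the pathway lists (24 higher, 4 lower). Of the 37 genes, 8 that had not passed changed sign somewhere. With sex as a covariate Trp73 was -0.021, Ddb2 -0.026, Atm 0.066 and Gadd45b -0.27. Without 1 library Ddb2 ranged from -0.023 to 0.27, Trp53inp1 from -0.049 to 0.41, Atm from -0.14 to 0.0046, Psrc1 from -0.24 to 0.051, Polk from -0.021 to 0.13, Atr from -0.065 to 0.13 and Gadd45b from -0.23 to 0.49. The cause of these shifts was not tested. With 3 libraries a group, 57% of simulated 2-fold changes were recovered and smaller ones were not simulated, so a gene that did not pass is not shown to be unchanged.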
